A study of Mus musculus with 9 samples.

Results

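This report describes 9 genes of the canonical Wnt pathway in the mouse embryonic cortex: the effector Ctnnb1 (β-catenin), the 4 TCF/LEF transcription factor genes Lef1, Tcf7, Tcf7l1 and Tcf7l2, and the feedback or target genes Axin2, Nkd1, Apcdd1 and Sp5. They were chosen by name for their place in the pathway and were matched by symbol to Ensembl identifiers. All 9 symbols matched 1 identifier each among the 57010 genes of the count table, and all 9 were among the 13680 genes that entered the tests, since each exceeded 10 reads in all embryos. The study asked what loss of Cnot3, a subunit of the CCR4-NOT deadenylase complex that starts mRNA decay, does to gene expression in the developing cortex. Cortical tissue of single embryos at E12.5 was sequenced from 3 control embryos (Ctrl, genotype labelled WT), 3 Cnot3 cKO embryos and 3 Cnot3;Trp53 dcKO embryos. In cKO embryos floxed Cnot3 was deleted with Emx1-Cre, which acts in the radial glia of the dorsal telencephalon and in the cells they give rise to, and dcKO embryos carried floxed Trp53 alleles as well. Vessels, meninges and blood lie outside the lineage of this Cre, and whether Ctrl embryos carried Cre or floxed alleles is not given in the sources used here. The strain is not given in the sources used here.

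In the canonical Wnt pathway a secreted ligand binds Frizzled and LRP receptors, which stops a complex built on Axin and APC proteins from marking β-catenin for destruction. β-catenin then enters the nucleus and binds TCF/LEF proteins, which sit on DNA and switch from repression to activation of target genes, among them genes that restrain the pathway in turn. In the embryonic cortex the pathway is known for its source in the cortical hem at the medial edge, for patterning of the medial cortex and hippocampus, and for keeping radial glia in the cell cycle.

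Promoter sequence was taken from RefSeq (GRCm38.p6), with 250 bases before and 50 bases after each annotated start. Windows were held for 8 of the 9 genes, all but Apcdd1, in 14 windows, because Ctnnb1, Lef1, Tcf7 and Tcf7l2 have more than 1 start. The letters CTTTGAT, a form of the TCF/LEF binding motif, were searched on both strands, where the other strand reads ATCAAAG. The shorter core CTTTGA was searched likewise as TCAAAG, and every match of the longer form also contains it. The longer form was found in 1 of the 14 windows, that of Sp5, against 3.73% of all 32851 windows, and the core in 2 of the 14, those of Sp5 and of start 4 of Lef1, against 16.003% of all windows. Counted by gene, 4.29% of all genes with a window held the longer form and 18.2% the core. A match is a description of the letters and not evidence of binding. The 250 bases before the start are printed for the 2 windows with a match and for Axin2, the most used reporter gene of the pathway, whose window held neither form. Capitals mark the matched letters.
Sp5 (chr2:70474673-70474922, plus strand, in no annotated gene): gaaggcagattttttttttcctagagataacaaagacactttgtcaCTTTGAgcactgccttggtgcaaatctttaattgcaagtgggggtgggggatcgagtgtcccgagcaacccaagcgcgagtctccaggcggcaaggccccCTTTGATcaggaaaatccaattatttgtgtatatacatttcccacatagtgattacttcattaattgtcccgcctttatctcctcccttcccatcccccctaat
Lef1, start 4 (chr3:131156044-131156293, plus strand, in a Lef1 intron): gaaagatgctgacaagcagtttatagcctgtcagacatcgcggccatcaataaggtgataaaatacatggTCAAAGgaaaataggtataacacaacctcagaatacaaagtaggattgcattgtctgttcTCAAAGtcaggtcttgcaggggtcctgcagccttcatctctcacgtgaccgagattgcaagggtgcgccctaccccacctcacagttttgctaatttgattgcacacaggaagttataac
Axin2 (chr11:108920099-108920348, plus strand, in no annotated gene): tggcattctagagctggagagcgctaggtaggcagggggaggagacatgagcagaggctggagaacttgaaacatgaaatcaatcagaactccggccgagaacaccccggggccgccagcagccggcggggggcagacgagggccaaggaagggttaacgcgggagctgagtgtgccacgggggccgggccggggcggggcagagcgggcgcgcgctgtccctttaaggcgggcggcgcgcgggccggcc
The CTTTGAT of Sp5 begins 104 bases before the start. The Sp5 and Lef1 windows differ in base composition from that of Axin2, with 45% and 43.7% G and C against 70.0%.

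The libraries held between 21193798 and 45073349 counted reads. Levels are given as CPM, the reads of a gene relative to all reads in tested genes, scaled by TMM factors, and a gene was called when its Benjamini-Hochberg adjusted p was under 0.05 and its log2 fold change above 1 in size. The targeted gene Cnot3 read 98.2 to 117.3 CPM in the Ctrl embryos, 14.6 to 17.3 CPM in the cKO embryos, and 7.33, 48.2 and 19.04 CPM in dcKO embryos 1, 2 and 3, and edgeR called it over both mutants against Ctrl at a log2 fold change of -2.45 ± 0.417 (adjusted p = 0.0247). Trp53 read 215 to 254 CPM in Ctrl, 164 to 167 CPM in cKO, and 15.1, 110 and 20.6 CPM in the dcKO embryos. dcKO embryo 2 thus kept the most reads of both targeted genes, and it stands apart in several of the Wnt genes described here, while dcKO embryo 3 stands apart in Tcf7l1 and Nkd1. The 3 dcKO libraries also differed from one another far more than the others did. The mean chi-square per gene was 185.2 between dcKO embryos 1 and 2, 313.2 between 1 and 3 and 507.1 between 2 and 3. It was 15.6 to 53.8 between Ctrl pairs and 16.8 to 28.4 between cKO pairs. Without dcKO embryo 3 edgeR called 1157 genes higher and 2088 lower in dcKO, and without dcKO embryo 2 it called 980 and 350. Whether the tissue or the genotype of dcKO embryo 2 or 3 differs from its label was not tested. Both were kept under their labels, which bears on every dcKO and both-mutant value. For the 9 genes, fold changes with 1 embryo left out are given beside the result. Ratios, correlations and the other pathway genes are given with all 9 embryos. The 9 cortex markers summed to 1461 to 2169 CPM in Ctrl, 1295 to 1517 CPM in cKO and 1436 to 2054 CPM in dcKO, while the summed markers of diencephalon stayed at or below 2.42 CPM and those of subpallium at or below 0.528 CPM in all embryos but dcKO embryo 2, which read 8.43 CPM. Among the cortex markers Pax6 read 118.8 to 157 CPM over the 9 embryos, and Lhx2 read 467 to 854 CPM in Ctrl, 275 to 317 CPM in cKO and 342 to 623 CPM in dcKO. Neurod6 read 97.3 to 126 CPM in Ctrl and 113 to 255 CPM in cKO, Tbr1 138 to 161 and 132 to 214 CPM, and Emx2 173 to 196 and 113 to 169 CPM, with Emx2 at 150 to 312 CPM in dcKO. Emx1, which marks the targeted lineage, read 43.8 CPM or more in Ctrl, 20.4 to 23.7 CPM in cKO and 7.94 to 80.9 CPM in dcKO.

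Levels of different genes were compared per kilobase of exon. In Ctrl cortex Ctnnb1 was far above the rest at 267 ± 4.75 CPM per kb (SD, n = 3). Tcf7l1 came second at 26.0 ± 5.40 CPM per kb and its range was separate from both neighbours. Axin2 at 11.2 ± 1.87, Nkd1 at 7.41 ± 2.93, Tcf7 at 5.82 ± 0.225, Lef1 at 5.78 ± 0.412 and Apcdd1 at 5.74 ± 1.63 CPM per kb followed, and each overlapped the next in that order. Sp5 at 1.81 ± 0.548 and Tcf7l2 at 1.58 ± 0.0121 CPM per kb were lowest, below Apcdd1 and overlapping each other. Tcf7l1 was thus the most abundant TCF/LEF mRNA of the control cortex and Tcf7l2 the least abundant. In cKO cortex Lef1, at 2.59 ± 0.656 CPM per kb, stood below Nkd1 and above Tcf7l2 with no overlap to either, while in dcKO cortex its range overlapped both neighbours.

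**Figure D1:**
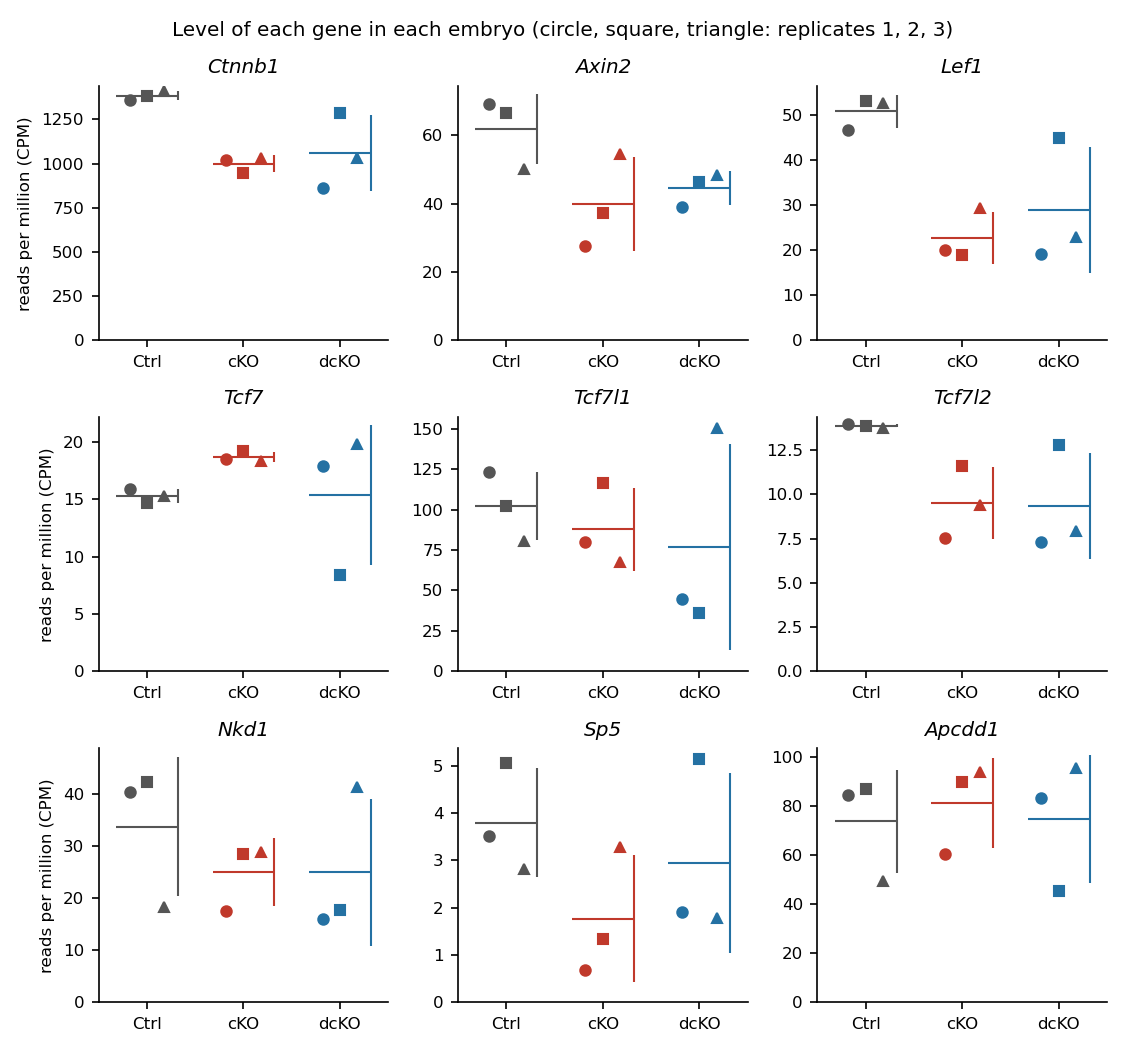
Level of each of the 9 genes in each embryo, in CPM (linear axis from 0). Circles, squares and triangles are replicates 1, 2 and 3 of each genotype, the horizontal line is the mean and the vertical line ± 1 SD (n = 3 embryos). Lef1, Ctnnb1 and Tcf7l2 are below the Ctrl range in all 6 mutant embryos, and the square of dcKO is the embryo nearest to Ctrl in these 3 genes.

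Lef1 was the gene of the set that DESeq2 called, lower in the mutants. It encodes a TCF/LEF factor that mostly acts as an activator with β-catenin and is itself a common Wnt target. It lies at chr3:131110471-131224356 on the plus strand (GENCODE M21, GRCm38, identifier ENSMUSG00000027985.15). It read 46.6, 53.1 and 52.7 CPM in Ctrl embryos 1 to 3, 20.0, 18.9 and 29.4 CPM in cKO embryos 1 to 3, and 19.1, 44.8 and 22.9 CPM in dcKO embryos 1 to 3. All 6 mutant embryos were below all 3 Ctrl embryos, and 5 of them stood between 37.2% and 57.9% of the Ctrl mean, with dcKO embryo 2 at 88.2%. In cKO the log2 fold change was -1.16 ± 0.323 (SE) with an edgeR adjusted p of 0.0655, which is no call, and DESeq2 gave -1.17 with an adjusted p of 0.0105, which is a call. In dcKO it was -0.81 ± 0.321 with an edgeR adjusted p of 0.130, and DESeq2 gave an adjusted p of 0.0738, so neither tool called it. Over both mutants against Ctrl, taken as the mean of both genotype differences, it was -0.98 ± 0.268 with an edgeR adjusted p of 0.0410, just short of the fold limit, and DESeq2 called it at -1.003 with an adjusted p of 0.00759. The exact two-sided permutation test on the log2 level gave p = 0.0238 for 6 mutant against 3 Ctrl embryos, the smallest p this design allows, and p = 0.1 for each genotype of 3 against 3, which is also the smallest possible. Every gene whose mutant embryos are all below Ctrl reaches these p. That was the case for 8.98% of all tested genes over both mutants, 28.1% in cKO and 11.2% in dcKO. In bulk tissue, fewer cells of a type that expresses a gene and less of its RNA per cell cannot be told apart.

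Whether Lef1 was called depended on which dcKO embryos were in the fit. Without dcKO embryo 2 the edgeR difference was -1.28 in dcKO (adjusted p = 0.00984) and -1.22 over both mutants (adjusted p = 0.00297), both calls. Without dcKO embryo 1 it was -0.58 in dcKO (edgeR adjusted p = 0.357) and -0.87 over both mutants, neither a call. Without dcKO embryo 1, 2 or 3 the cKO difference kept its size of -1.16 and was called, with edgeR adjusted p of 0.0345, 0.00954 and 0.0152, since those embryos enter that comparison only through the shared spread. Over 21 alternative settings Lef1 was below Ctrl in cKO each time, with log2 fold changes from -1.40 to -1.04 and adjusted p from 8.33e-06 to 0.215, and was called in 10 of them. In dcKO the log2 fold changes ran from -1.31 to -0.58 and it was called in 4 of 21 settings, and over both mutants they ran from -1.27 to -0.87 with a call in 10 of 20. For scale, DESeq2 called 3.87% of all tested genes lower in cKO and 4.49% lower over both mutants, and edgeR called 2.52% lower over both mutants.

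**Figure D2:**
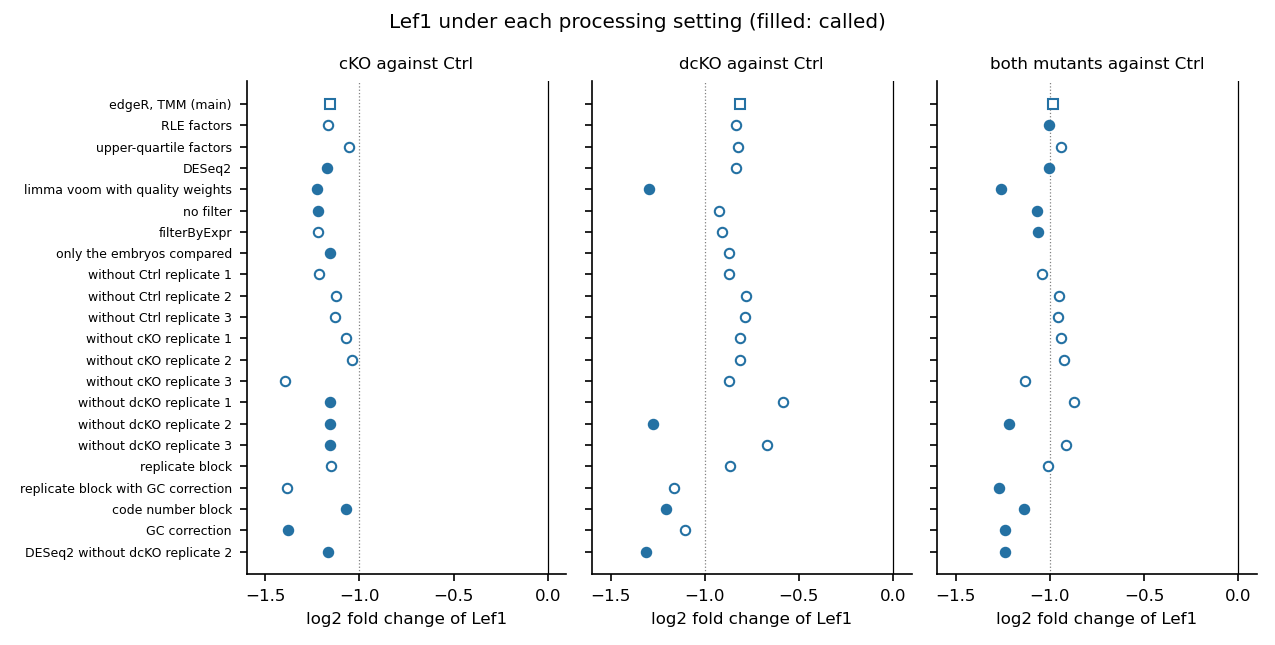
Log2 fold change of Lef1 (x axis) under each processing setting (y axis) in 3 comparisons. The square is the reported edgeR fit and circles are the alternatives, filled where Lef1 was called, and dotted lines mark a log2 fold change of -1. Every point lies below 0, and filled points number 10 of 21 in cKO, 4 of 21 in dcKO and 10 of 20 over both mutants.

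Ctnnb1, the gene of β-catenin, was the most abundant of the set, and its controls differed little, with a coefficient of variation of 1.8%. It lies at chr9:120929216-120960507 on the plus strand (ENSMUSG00000006932.18). It read 1362, 1381 and 1411 CPM in Ctrl, 1020, 948 and 1034 CPM in cKO, and 859.8, 1286 and 1030 CPM in dcKO embryos. All 6 mutant embryos were below the Ctrl range, from 62.1% to 92.8% of the Ctrl mean, and dcKO embryo 2 was again the nearest to it. The log2 fold change was -0.47 ± 0.185 in cKO, -0.39 ± 0.185 in dcKO and -0.43 ± 0.158 over both mutants, with edgeR adjusted p of 0.141, 0.192 and 0.0906. DESeq2 gave an adjusted p of 0.0344 over both mutants, with a fold change far under the limit for a call. The exact permutation test gave p = 0.0238 over both mutants, as for each of the 8.98% of all tested genes with every mutant embryo lower. With 1 embryo left out the dcKO difference ranged from -0.55, without dcKO embryo 2, to -0.26, without dcKO embryo 1. Ulk4, on the opposite strand, overlaps Ctnnb1 and had a median of 13.1 CPM, and the strand setting of the read counting is not given in the sources used here.

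Tcf7l2, which encodes a TCF factor well known from the thalamus and midbrain, was low in this tissue. It lies at chr19:55741820-55933654 on the plus strand (ENSMUSG00000024985.21). It read 13.98, 13.88 and 13.77 CPM in Ctrl, 7.52, 11.6 and 9.39 CPM in cKO, and 7.30, 12.8 and 7.91 CPM in dcKO embryos. Controls agreed within a coefficient of variation of 0.8%. On 280 to 382 reads per Ctrl embryo, counting noise alone is larger than this, so the narrow Ctrl range does not measure the spread between embryos. All 6 mutant embryos were lower, between 52.6% and 92.0% of the Ctrl mean. The log2 fold changes of -0.55 ± 0.293 in cKO, -0.57 ± 0.293 in dcKO and -0.56 ± 0.249 over both mutants did not pass, with edgeR adjusted p of 0.258, 0.220 and 0.148. Limma voom with quality weights gave -0.67, -0.84 and -0.76 with adjusted p of 0.0043, 0.021 and 0.00247, short of the fold limit. The exact permutation test over both mutants gave p = 0.0238, which the 8.98% of all tested genes with every mutant embryo lower share. Without dcKO embryo 2 the dcKO difference was -0.87, and without dcKO embryo 1 it was -0.42.

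Tcf7, which encodes the factor TCF1 and is a Wnt target in many tissues, was the only gene of the set with every cKO embryo above every Ctrl embryo. It lies at chr11:52252371-52283014 on the minus strand (ENSMUSG00000000782.17). It read 15.9, 14.7 and 15.3 CPM in Ctrl, 18.5, 19.2 and 18.3 CPM in cKO, and 17.9, 8.43 and 19.8 CPM in dcKO embryos. dcKO embryos 1 and 3 were above the Ctrl range like the cKO embryos, and dcKO embryo 2 was below it at 55.1% of the Ctrl mean. In cKO the log2 fold change was 0.29 ± 0.305 with an edgeR adjusted p of 0.572, and 29.2% of all tested genes had every cKO embryo above every Ctrl embryo. In dcKO the log2 fold change was 0.01 ± 0.305, and its sign turned under several settings, with values from -0.215 to 0.304 when 1 embryo was left out.

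Tcf7l1 encodes TCF3, a factor that mostly represses Wnt targets in progenitors. It lies at chr6:72626378-72789254 on the minus strand (ENSMUSG00000055799.14). It read 123, 102 and 80.8 CPM in Ctrl, 79.7, 116.4 and 67.4 CPM in cKO, and 44.8, 35.8 and 150 CPM in dcKO embryos. The cKO and Ctrl ranges overlapped, while dcKO was split, with embryos 1 and 2 at 43.9% and 35.1% of the Ctrl mean and embryo 3 at 147.2%. The log2 fold change was -0.22 ± 0.476 in cKO and -0.41 ± 0.476 in dcKO, with edgeR adjusted p of 0.801 and 0.585. Without dcKO embryo 3 the dcKO difference was -1.34 and was called by edgeR (adjusted p = 0.00193), and limma voom with quality weights also called it at -1.11 (adjusted p = 0.00472). Without dcKO embryo 2 it was -0.07, and a block on the number in the embryo code, in which the dcKO value rests on 1 pair of embryos, turned it to 0.89 (edgeR adjusted p = 0.00111). In cKO it ranged from -0.47 to -0.06 with 1 embryo left out. The direction in Tcf7l1 turned to 0.33 in cKO and 0.18 in dcKO when each embryo was corrected for GC content, and the transcript of Tcf7l1, with 59.3% G and C, ranks at the 95.0th percentile of tested genes.

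**Figure D3:**
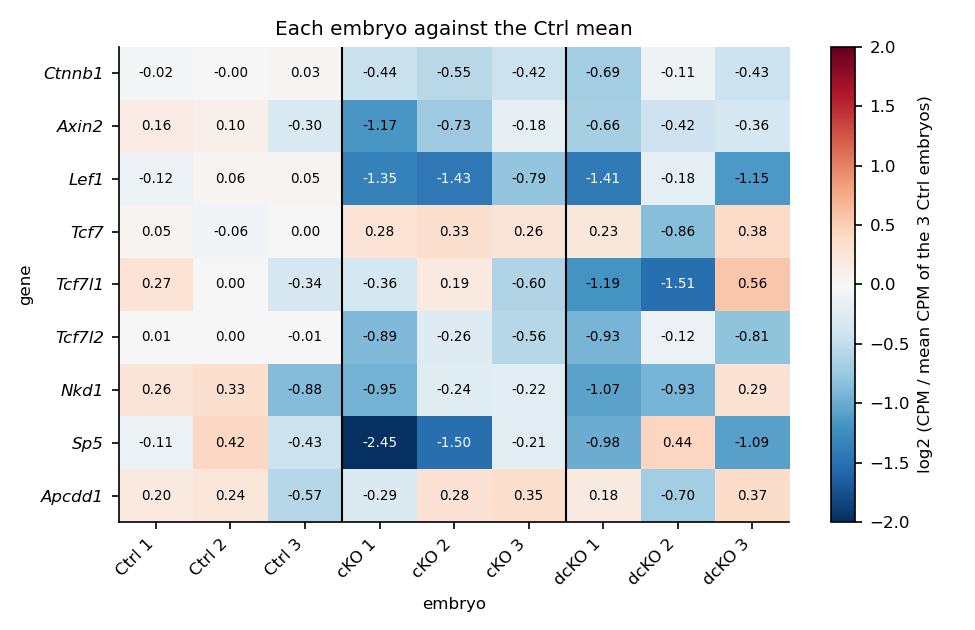
Log2 of each embryo's CPM over the mean CPM of the 3 Ctrl embryos, for the 9 genes (rows) in the 9 embryos (columns, grouped by genotype). Blue is below and red above the Ctrl mean, and colours stop at -2 and 2 on the log2 scale, which Sp5 in cKO embryo 1 passes at -2.45. Lef1, Ctnnb1, Axin2 and Tcf7l2 are blue in all 6 mutant embryos, while Tcf7, Tcf7l1, Nkd1, Sp5 and Apcdd1 have both colours among the dcKO embryos.

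Axin2, a scaffold of the destruction complex and the standard feedback target of the pathway, was lower in most mutant embryos. It lies at chr11:108920349-108950783 on the plus strand (ENSMUSG00000000142.16). It read 69.0, 66.5 and 50.0 CPM in Ctrl, 27.5, 37.4 and 54.6 CPM in cKO, and 39.1, 46.4 and 48.3 CPM in dcKO embryos. All but 1 of the mutant embryos were below the lowest Ctrl embryo, the exception being cKO embryo 3, which lay inside the Ctrl range. The log2 fold change was -0.63 ± 0.256 in cKO, -0.47 ± 0.256 in dcKO and -0.55 ± 0.217 over both mutants, with edgeR adjusted p of 0.147, 0.244 and 0.107. The exact permutation test gave p = 0.0476 over both mutants and p = 0.1 in dcKO, where the groups did not overlap, as in 11.2% of all tested genes in that direction. With 1 embryo left out, Axin2 stayed between -0.94 and -0.43 in cKO, and in dcKO between -0.60 and -0.39.

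Sp5 encodes a zinc-finger repressor that is induced directly by Wnt signals, and it had the fewest reads of the set, from 19 to 201 per embryo. It lies at chr2:70474923-70477729 on the plus strand (ENSMUSG00000075304.3), next to the promoter printed above. It read 3.51, 5.06 and 2.81 CPM in Ctrl, 0.693, 1.34 and 3.28 CPM in cKO, and 1.92, 5.13 and 1.78 CPM in dcKO embryos. Ranges overlapped in both mutants, with cKO embryo 3 inside the Ctrl range and dcKO embryo 2 above it. The log2 fold change was -1.09 ± 0.612 in cKO, the second in size after Lef1, with an edgeR adjusted p of 0.275, and limma voom with quality weights called it at -1.74 (adjusted p = 0.00302). In dcKO it was -0.36 ± 0.598 and over both mutants -0.73 ± 0.510, with edgeR adjusted p of 0.713 and 0.350, and voom called it over both mutants at -1.35 (adjusted p = 0.0118). With 1 embryo left out, Sp5 ranged in cKO from -1.90, without cKO embryo 3, to -0.71, without cKO embryo 1. It ranged in dcKO from -1.03, without dcKO embryo 2, to -0.10, without Ctrl embryo 2, and over both mutants from -1.16 to -0.47. Correction for GC content turned Sp5 to 1.15 in dcKO and 0.45 over both mutants, and its transcript, with 62.0% G and C, ranks at the 98.7th percentile.

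Nkd1 and Apcdd1 encode Wnt antagonists that act on Dishevelled inside the cell and on ligand and receptor at the cell surface. Nkd1 lies at chr8:88521354-88594884 on the plus strand (ENSMUSG00000031661.13) and Apcdd1 is on chromosome 18 (ENSMUSG00000071847.14). Nkd1 read 40.5, 42.4 and 18.4 CPM in Ctrl, 17.5, 28.6 and 29.0 CPM in cKO, and 16.1, 17.7 and 41.4 CPM in dcKO embryos. Apcdd1 read 84.8, 87.2 and 49.8 CPM in Ctrl, 60.4, 90.1 and 94.1 CPM in cKO, and 83.5, 45.4 and 95.7 CPM in dcKO embryos. Both genes were low in Ctrl embryo 3 and their groups overlapped throughout. For Nkd1 the log2 fold change was -0.43 ± 0.428 in cKO and -0.43 ± 0.428 in dcKO, with edgeR adjusted p of 0.546 and 0.519. With 1 embryo left out, Nkd1 ranged in cKO from -0.73, without Ctrl embryo 3, to -0.23, without cKO embryo 1, and in dcKO from -0.997, without dcKO embryo 3, to -0.20, without dcKO embryo 1. The block on the code number turned Nkd1 in dcKO to 1.17 and called it higher (edgeR adjusted p = 0.00107), on 1 pair of embryos. For Apcdd1 it was 0.14 ± 0.315 in cKO and 0.02 ± 0.315 in dcKO, with edgeR adjusted p of 0.803 and 0.974, and its sign turned in both under several settings, such as without Ctrl embryo 3 (-0.08 in cKO and -0.20 in dcKO).

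Across the 9 genes edgeR called 0 in each of the 4 comparisons. Of all tested genes it called 0.0146% higher and 0.0% lower in cKO, 0.0% in dcKO, 3.63% higher and 2.52% lower over both mutants, and 0.0146% lower in dcKO against cKO, and these shares were the same with the fold limit left out except over both mutants, where they were 7.79% higher and 5.19% lower. It gave an unadjusted p under 0.05 to 3 genes in cKO (Ctnnb1, Axin2 and Lef1), 1 in dcKO (Lef1) and 4 over both mutants (these 3 and Tcf7l2), each lower, against 11.7%, 11.2% and 14.3% of all tested genes. DESeq2 called 1 gene, Lef1, in cKO and over both mutants, and 0 in dcKO and in dcKO against cKO, where an unadjusted DESeq2 p under 0.05 was given to 3 genes, all lower, against 13.9% of all tested genes, and to 0 genes. Of all tested genes it called 4.94% higher in cKO, 4.66% higher and 3.79% lower in dcKO, and 0.0292% higher and 0.351% lower in dcKO against cKO. Groups did not overlap, with the mutants lower, for 3 of 9 genes in cKO (Ctnnb1, Lef1 and Tcf7l2; 28.1% of all tested genes), 4 of 9 in dcKO (these and Axin2; 11.2%) and 3 of 9 over both mutants (8.98%). The median log2 fold change of the set was -0.47 in cKO, -0.41 in dcKO and -0.43 over both mutants, where the medians of all tested genes were 0.01, 0.11 and 0.06. With upper-quartile factors the median of all tested genes moved by 0.106 to 0.116 in cKO, and the fold changes of the set moved with it.

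**Figure D4:**
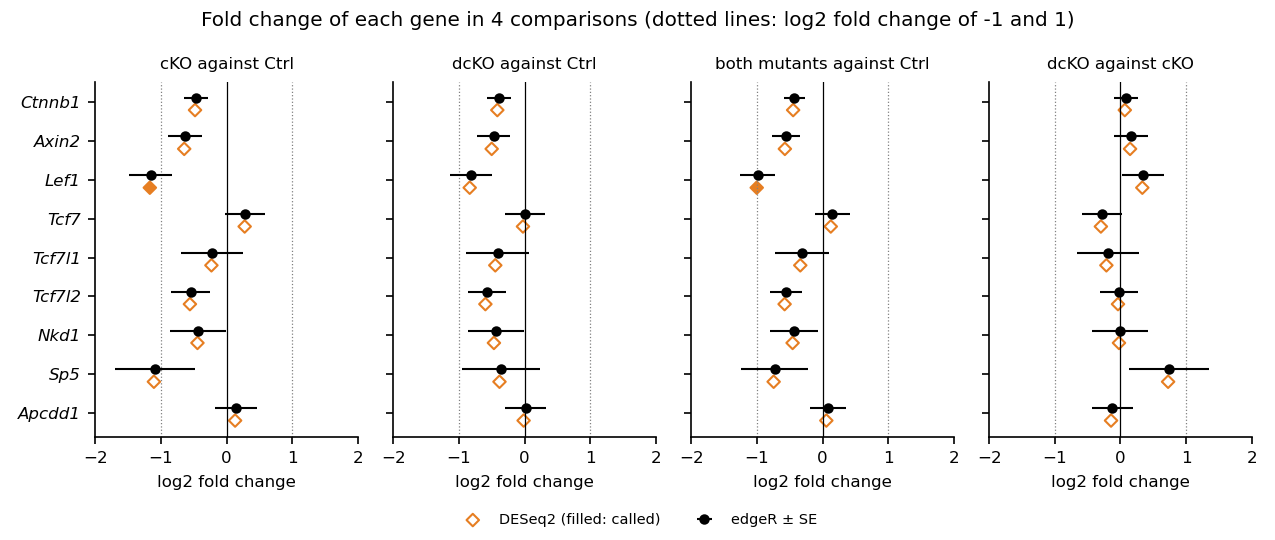
Log2 fold change of each gene in the 4 comparisons, as edgeR estimates with their standard errors (black) and DESeq2 estimates (orange, filled where called). Dotted lines mark -1 and 1, the limits a call needs. Lef1 is the only gene with a filled symbol, in cKO against Ctrl and over both mutants, and in dcKO against cKO no gene passes.

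Between the 2 mutants no gene of the set separated. Differences on the log2 scale between these genotypes ranged from -0.28 ± 0.304 for Tcf7 to 0.74 ± 0.607 for Sp5, and the smallest edgeR adjusted p was 0.892. An unadjusted p under 0.05 was given to 0 of 9 genes, against 2.05% of all tested genes higher and 2.38% lower. Lef1 was at 0.35 ± 0.32 in dcKO against cKO, and without dcKO embryo 2 the difference was -0.12. Without dcKO embryo 3 Tcf7l1 was at -1.12 in dcKO against cKO and was called lower by edgeR (adjusted p = 0.0166). A block on the number in the embryo code put it at 1.23. No cKO and dcKO embryo share a number, and in that fit dcKO rests on 1 pair of embryos with Ctrl. Sp5 ranged from 0.06 to 1.48 with 1 embryo left out. For 0 of 9 genes did the cKO and dcKO embryos form ranges without overlap, where 2.60% of all tested genes were higher and 3.63% lower in every dcKO embryo.

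The ratio of 2 genes within an embryo does not depend on the scaling of libraries. For each 100 reads of Ctnnb1 there were 3.42, 3.84 and 3.74 reads of Lef1 in Ctrl, 1.96, 2.00 and 2.85 in cKO, and 2.22, 3.49 and 2.22 in dcKO embryos. Lef1 was thus lower relative to Ctnnb1 as well, with 5 of 6 mutant embryos below the Ctrl range and dcKO embryo 2 inside it. The log2 difference was -0.71 in cKO (exact permutation p = 0.1), -0.51 in dcKO (exact permutation p = 0.2) and -0.61 over both mutants (exact permutation p = 0.0476). Over 5 ratios and both mutants against Ctrl, the other 4 exact p ranged from 0.143 to 0.643 and no p was adjusted over them. The ratio of Axin2 to Ctnnb1 differed by -0.13 over both mutants and that of Tcf7l2 to Ctnnb1 by -0.15, each with ranges that overlapped. The ratio of Lef1 to Tcf7l1, an activator to a repressor of the same family, ran from 37.9 to 65.2 reads per 100 in Ctrl, 16.3 to 43.7 in cKO and 15.2 to 125 in dcKO, and its groups overlapped.

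Pairs of the 9 genes varied together over the 9 embryos to different degrees. These correlations are descriptions over embryos that share the tissue and the scaling of libraries, and they were not recomputed with 1 embryo left out. Ctnnb1, Lef1 and Tcf7l1 varied most among the dcKO embryos, with coefficients of variation of 20.2%, 48.0% and 82.7%, so their within-genotype values draw mainly on those embryos. Lef1 and Ctnnb1 ran together (Pearson r = 0.97, and 0.90 after each genotype's mean was removed), and Tcf7l2 followed both (r = 0.845 with Ctnnb1 and 0.843 with Lef1, and 0.642 and 0.678 within genotypes). Tcf7 ran against Lef1 (r = -0.62, and -0.85 within genotypes), and dcKO embryo 2 had the lowest Tcf7 and the highest Lef1 among mutants. Nkd1 ran with Tcf7l1 (r = 0.78, and 0.77 within genotypes) and with Apcdd1 (r = 0.70, and 0.79), and Axin2 with Sp5 (r = 0.85, and 0.79) and with Lef1 (r = 0.76, and 0.43). Pairs across these also ran together, Lef1 with Sp5 (r = 0.82, and 0.80), Axin2 with Nkd1 (r = 0.67, and 0.68) and Tcf7 with Apcdd1 (r = 0.70, and 0.70).

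**Figure D5:**
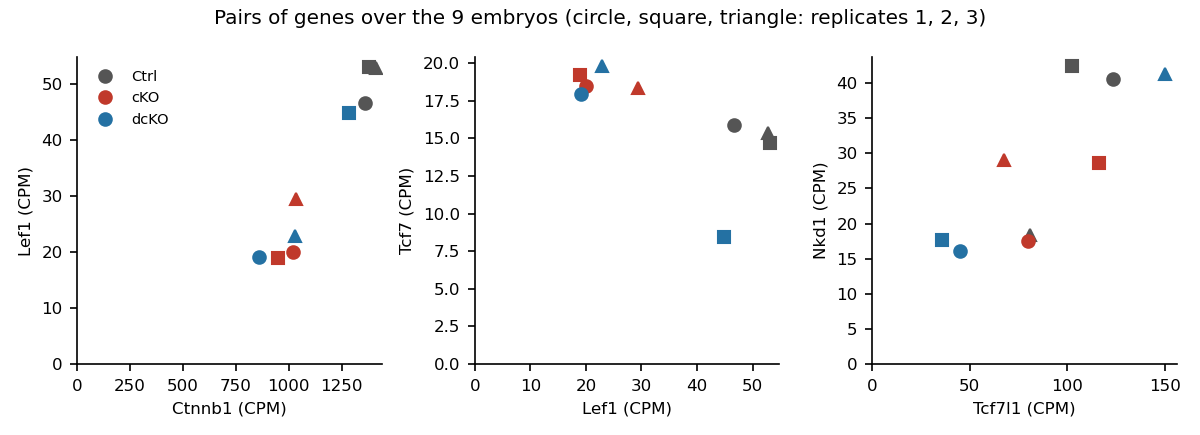
Level of 3 pairs of genes in the 9 embryos, in CPM on linear axes from 0, coloured by genotype with circles, squares and triangles for replicates 1, 2 and 3. Lef1 rises with Ctnnb1, with dcKO embryo 2 (blue square) beside the Ctrl embryos. In the middle pair that embryo alone combines high Lef1 with low Tcf7, and in the right pair dcKO embryo 3 (blue triangle) has high Tcf7l1 and Nkd1.

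The 3 genes most like each member over the 9 embryos, by Pearson r of log2 CPM among all tested genes outside the set, were Ybx1, Slc7a1 and Phf5a for Ctnnb1 (r = 0.99 each) and Hdgf, Dcp1a and Tenm3 for Lef1 (r = 0.98 to 0.99). They were Cnnm4, Gm10254 and Hic2 for Tcf7l2 (r = 0.96 to 0.97), Mtmr11, Nfil3 and Lingo3 for Tcf7 (r = 0.99 each), and Smpd3, Zfp414 and Adprhl2 for Tcf7l1 (r = 0.99 each). They were Tmem132c, Cachd1 and Pdgfa for Axin2 (r = 0.91 to 0.96), Vmn2r85, Fzd1 and Zfp618 for Sp5 (r = 0.93 to 0.97), Zfp647, Rhbdd3 and Fam181a for Nkd1 (r = 0.94 to 0.97), and Gm2415, Ttc5 and Foxj1 for Apcdd1 (r = 0.94 to 0.97). The gene Fzd1 beside Sp5 encodes a Wnt receptor, and Dcp1a beside Lef1 an mRNA decapping factor.

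Around these 9 genes, 86 other genes of the pathway were listed in 8 groups, of which 63 were tested. edgeR called 2 of the 63 higher over both mutants (Wls and Lmx1a, against 3.63% of all tested genes) and 4 lower (Wnt7b, Bcl9, Bcl9l and Ctbp1, against 2.52%), and DESeq2 called 3 higher and 8 lower, against 5.18% and 4.49%. The median log2 fold change of the 63 over both mutants was -0.30, where all tested genes had 0.06. Of the partners of β-catenin in the nucleus, edgeR called 2 of 8 co-activators and 1 of 9 co-repressors and inhibitors lower. Bcl9l, an adaptor that binds β-catenin, read 54.9 to 110 CPM in Ctrl, 17.9 to 27.6 CPM in cKO and 8.61, 17.6 and 50.7 CPM in dcKO embryos, with a log2 fold change of -1.90 ± 0.446 over both mutants (edgeR adjusted p = 0.0288). Its relative Bcl9 was called at -1.13 ± 0.188 (edgeR adjusted p = 0.0247) with no overlap, and the co-repressor Ctbp1 at -1.21 ± 0.273 (edgeR adjusted p = 0.0266) with 1 dcKO embryo inside the Ctrl range. Smarca4, an ATPase that remodels chromatin, was at -0.997 ± 0.26 (edgeR adjusted p = 0.0369), short of the limit, and DESeq2 called it. Tle3, a Groucho co-repressor, was at -0.88 ± 0.210 with all 6 mutant embryos lower, and Tle1 was at -0.12 ± 0.159.

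Upstream of β-catenin the ligands differed in direction. Of the 7 ligand genes tested, Wnt7b, a forebrain ligand at 116.6 to 174 CPM in Ctrl, was at -1.0 ± 0.229 over both mutants and was called by edgeR (adjusted p = 0.0271), with 39.3 to 98.5 CPM in the mutant embryos. Wnt2b, a hem ligand, was at 2.52 ± 0.766 (edgeR adjusted p = 0.0546, and called by DESeq2), and Wnt5a at 0.57 ± 0.310. Wls, which carries Wnt proteins to the cell surface, read 59.4 to 67.2 CPM in Ctrl and 86.7 to 217 CPM in mutants and was called at 1.02 ± 0.293 (edgeR adjusted p = 0.0477), and Porcn, which attaches their lipid, was at 0.54 ± 0.412. Of the secreted antagonists Sfrp1 was at -1.16 ± 0.361 in cKO, where DESeq2 called it, and Sfrp2 at -0.93 ± 0.283. In dcKO both overlapped Ctrl, Sfrp1 at -0.41 ± 0.357 and Sfrp2 at -0.49 ± 0.28, and dcKO embryo 2 read 1040.0 CPM of Sfrp1, above the Ctrl range of 725.7 to 893 CPM. Of the co-receptors and Dishevelled genes DESeq2 called Lrp5 (-1.30 ± 0.434) and Dvl1 (-0.99 ± 0.376) over both mutants and edgeR called neither, while Lrp6 was at -0.02 ± 0.218. In dcKO embryo 3 Lrp5 read 62.1 CPM and Dvl1 30.6 CPM, inside their Ctrl ranges of 57.8 to 86.4 and 20.0 to 44.9 CPM. In the destruction complex 0 of 11 genes were called by either tool over both mutants and 4 were lower at an unadjusted edgeR p under 0.05, against 14.3% of all tested genes. Apc was at 0.26 ± 0.206 and Apc2 at -1.25 ± 0.557, with dcKO embryo 3 at 130.5 CPM of Apc2, inside the Ctrl range of 81.3 to 178.9 CPM. Among 13 other target genes the cell cycle gene Ccnd1 (-1.19 ± 0.373) and Sp8 (-1.53 ± 0.537), a relative of Sp5, were called lower in cKO by DESeq2, and Dact1 (1.23 ± 0.354), Msx2 (2.00 ± 0.667) and Lmx1a (2.04 ± 0.514) higher, against 3.87% lower and 4.94% higher among all tested genes. In dcKO DESeq2 called 1 of the 13, Lmx1a (1.71 ± 0.509), higher and 0 lower, against 4.66% and 3.79% of all tested genes, and 0 were lower at an unadjusted edgeR p under 0.05, against 11.2%. Nkd2, the relative of Nkd1, was at 0.25 ± 0.267 in cKO. In dcKO embryo 2 Ccnd1 read 236 CPM and Sp8 35.7 CPM, in or above their Ctrl ranges of 210.3 to 245 and 28.2 to 32.3 CPM, as Lef1 and Sp5 were near or above theirs.

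Summed markers of other cell types differed between genotypes in several lists. The 8 markers of the cortical hem summed to 84.5 to 138 CPM in Ctrl, 149.5 to 462 CPM in cKO and 197.5 to 465 CPM in dcKO, and none was at 0 in every embryo of a group. The 6 markers of choroid plexus summed to 1.55 to 2.63 CPM in Ctrl, where its defining gene Ttr was at 0 in all 3 embryos, and to 15.9 to 69.4 CPM in cKO and 17.01 to 107 CPM in dcKO. Meningeal fibroblast markers (8) summed to 805 to 878 CPM in Ctrl, 472 to 724.5 CPM in cKO and 344 to 526 CPM in dcKO. Col3a1 made up the most of this sum, at 411 to 466 CPM in Ctrl and 171 to 357 CPM in the mutants, and with Col1a1 it was below the Ctrl range in all 6 mutant embryos, as was Col1a2. Lum read 43.2 to 67.4 CPM in Ctrl and 54.9 to 71.2 CPM in cKO, Pdgfra 15.5 to 24.6 and 17.6 to 27.6 CPM, and Twist1 0.829 to 1.64 and 1.75 to 3.16 CPM, so these did not share that direction in cKO. Endothelial markers (8) overlapped between Ctrl (228 to 310.5 CPM) and cKO (226 to 320.1 CPM) and were lower in dcKO (151.5 to 178 CPM). Blood markers (6) summed to 6162 to 8642 CPM in Ctrl, 7617 to 11600 CPM in cKO and 4169 to 5703 CPM in dcKO, below every Ctrl embryo. Radial glia markers (9) overlapped between the groups in their sum, with 2806 to 3210 CPM in Ctrl, 2742 to 3305 CPM in cKO and 2843 to 3165 CPM in dcKO, and members separated both ways in cKO. Nes read 1030.0 to 1085 CPM in Ctrl and 568 to 753 CPM in cKO, Hes5 22.0 to 37.8 and 6.75 to 10.9 CPM, and Hopx 10.1 to 11.2 and 4.61 to 5.22 CPM, while Vim read 1159 to 1496 and 1659 to 2030 CPM. Neuron markers (8) summed to 1459 to 1906, 1089 to 1544 and 929 to 1847 CPM. The part of these cells in the levels of Lef1, Axin2 and the other genes was not tested.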

How the data were processed

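The deposited table holds raw counts per gene for 9 embryos. Per the labels and the methods, the authors prepared TruSeq stranded libraries from single cortices, sequenced them as paired-end reads, trimmed adapters (Cutadapt), aligned to mm39 (STAR) and produced the counts with featureCounts. Versions and the strand setting are not given in the sources used here. Counts were tested with edgeR 4.0.16 (glmQLFit and glmQLFTest, R 4.3.3) in 1 model of all 9 embryos with TMM factors, on the 13680 of 57010 genes that exceeded 10 reads in all embryos (30138 genes had no read). P-values were adjusted over all tested genes, and a call needed an adjusted p under 0.05 together with a log2 difference larger than 1 in size. Standard errors were derived from the F statistic. DESeq2 1.42.0 and limma 3.58.1 served as alternatives, and scripts were tested on simulated data. Single genes and ratios were also compared by exact two-sided permutation tests on log2 values (prior count 0.5). CPM refers to reads of tested genes. Annotation and coordinates came from GENCODE M21 (GRCm38), which is not the build of the reads, and matched 52081 identifiers. GC content was known for 99.13% of tested genes. Group means carry SD, n = 3. The labels call the samples biological replicates from single embryos. Alternative settings covered scaling, filter, tool, GC correction, block and each embryo left out. Same-numbered replicates did not deviate together (Pearson r from -0.537 to 0.126 over 9 pairs), so no pairing was used. Named were all 9 genes, in each pathway list the first 2 tested genes in the order listed and every gene called by edgeR or DESeq2, Cnot3, Trp53, and the 3 most similar genes of each member. The members and lists were chosen with earlier results of these data known. DESeq2 gave no adjusted p for Trp53. Differences between genotypes rest on 3 embryos each, and depth was 21193798 to 45073349 reads.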

Additional observations from a re-analysis of the deposited data

How the results depend on the processing

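Lef1, Ctnnb1, Axin2 and Tcf7l2 were below Ctrl in cKO, dcKO and both mutants under each alternative run, 21 in cKO and in dcKO and 20 over both mutants. Of the log2 fold changes of the 9 genes, 172 of 189 in cKO, 155 of 189 in dcKO and 157 of 180 over both mutants kept direction and side of the threshold, 6, 28 and 12 changed sign, and 11, 6 and 11 became calls in the same direction, while 1 of the sign changes in dcKO, Nkd1 with the code number block, was also a call. For dcKO against cKO, 4 genes (Lef1, Tcf7, Tcf7l1 and Sp5) were followed, and 72 of 84 values kept direction and side. Where a cause is not named it was not tested. Sp5 had the fewest reads of the 9 genes, 19 to 201 per embryo.

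As reported, counts of called genes were 2 higher and 0 lower in cKO, 0 and 0 in dcKO, 0 and 2 in dcKO against cKO, and 496 and 345 over both mutants, with 0 of the 9 genes called. DESeq2 called 676 higher and 530 lower in cKO, 638 and 519 in dcKO, 4 and 48 in dcKO against cKO, and 614 lower over both mutants, with 1 of the 9 genes in cKO and over both. Limma voom with quality weights called 957 and 911 in cKO, 1491 and 2177 in dcKO, 3 and 24 in dcKO against cKO, and 1112 and 1602 over both mutants, with 2 of the 9 genes in each contrast with Ctrl. Without a filter it was 386 and 427 in cKO, 313 and 379 in dcKO, 1 and 7 in dcKO against cKO and 661 lower over both, with 1 of the 9 genes in cKO and over both. Upper-quartile factors gave 331 and 93 in cKO. RLE factors and filterByExpr each called 1 of the 9 genes over both mutants. With only the embryos compared there were 945 and 813 in cKO with 1 of the 9 genes, and 0 lower in dcKO against cKO, and for both mutants this is the reported fit. GC correction gave 407 and 240 in cKO, 134 and 41 in dcKO, 6 lower in dcKO against cKO and 185 lower over both, with 1 of the 9 genes in cKO and over both. DESeq2 without dcKO embryo 2, chosen after seeing the data, gave 870 and 655 in cKO, 1036 and 604 in dcKO, 2 and 52 in dcKO against cKO, and 988 and 663 over both, with 1 of the 9 genes in each contrast with Ctrl.

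The replicate block called 0 higher in cKO, 0 lower in dcKO against cKO and 0 either way over both mutants, and with GC correction 4 higher in cKO, 6 lower in dcKO against cKO, and 207 and 126 over both, with 1 of the 9 genes. A block on the number in the embryo code gave 957 and 1029 in cKO, 1229 and 404 in dcKO, 1349 and 234 in dcKO against cKO and 951 higher over both, with 1, 2, 2 and 1 of the 9 genes, and its dcKO contrast rests on 1 pair. With 1 embryo left out, counts ranged from 0 to 769 higher and 0 to 751 lower in cKO, 0 to 1157 and 0 to 2088 in dcKO, 0 to 353 and 0 to 883 in dcKO against cKO, and 0 to 967 and 0 to 1381 over both, with 0 to 1 of the 9 genes in each.

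The sign turned in the following cases. In dcKO, Apcdd1 and Tcf7 were at -0.014 and -0.023 with RLE factors, -0.014 and -0.024 with DESeq2, -0.065 and -0.075 without a filter, -0.052 and -0.06 with filterByExpr, -0.02 and -0.027 with only the embryos compared, and -0.003 and -0.043 with the replicate block. Voom put Apcdd1 at -0.066 in cKO and -0.01 over both mutants. GC correction put Apcdd1 at -0.021, -0.13 and -0.075 and Tcf7l1 at 0.326, 0.177 and 0.251 in cKO, dcKO and both, and Sp5 at 1.153 in dcKO and 0.451 over both. With the replicate block added, Apcdd1 was at -0.037, -0.159 and -0.098, Tcf7l1 at 0.326, 0.177 and 0.251, and Sp5 at 1.078 and 0.407. The code number block put Nkd1 at 1.166, a call, and Tcf7l1 at 0.895 in dcKO, and at 0.32 and 0.278 over both. In dcKO against cKO it put Lef1 at -0.13, Tcf7 at 0.075 and Tcf7l1 at 1.234, a call, voom put Lef1 at -0.071, and DESeq2 without dcKO embryo 2 put Lef1 at -0.149 and Tcf7l1 at 0.119. The exact permutation p of Apcdd1 over both mutants was 0.9524, with the sign turned, when TMM factors came from all genes with a read. With 1 embryo left out, Apcdd1 ranged from -0.076 to 0.318 in cKO, -0.2 to 0.278 in dcKO and -0.138 to 0.216 over both, Tcf7 from -0.215 to 0.304 in dcKO, and in dcKO against cKO Lef1 from -0.119 to 0.574, Tcf7 from -0.503 to 0.016 Tcf7l1 from -1.123 to 0.15 and Sp5 from 0.064 to 1.48.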

Other observations

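The R-spondins, secreted proteins that raise the response of cells to Wnt, were measured among the hem markers. Rspo2 read 7.46, 12.4 and 0.613 CPM in Ctrl, 24.4, 74.9 and 96.5 CPM in cKO, and 121.2, 36.9 and 31.1 CPM in dcKO embryos, so every mutant embryo was above every Ctrl embryo. Rspo3 read 11.1 to 22.6 CPM in Ctrl, 34.0 to 106 CPM in cKO and 28.8 to 121.6 CPM in dcKO, with the same separation. Rspo1 read 2.31 to 13.3 CPM in Ctrl and 10.95 to 38.3 CPM in the 6 mutant embryos, with ranges that overlapped. The hem ligand Wnt3a read 3.83, 2.83 and 0.0721 CPM in Ctrl, 4.34, 18.7 and 21.5 CPM in cKO, and 8.14, 4.19 and 17.6 CPM in dcKO embryos. Wnt8b, of hem and adjacent medial cortex, read 53.9 to 72.8 CPM in Ctrl and 52.2 to 132 CPM in mutants, and its groups overlapped. Of all tested genes, 12.9% had every mutant embryo above every Ctrl embryo and 8.98% had every mutant embryo below. Lef1, Ctnnb1 and Tcf7l2 were among the latter, and a relation between these levels was not tested.

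The embryo codes carry a number that some Ctrl and mutant embryos share in 3 pairs, whose meaning is not given in the sources used here. Between embryos with the same number, Lef1 differed by -1.30 (cKO embryo 2), -0.85 (cKO embryo 3) and -1.20 (dcKO embryo 3) on the log2 scale, Ctnnb1 by -0.52, -0.42 and -0.46, and Tcf7 by 0.27, 0.32 and 0.37. Axin2 differed by -0.89, -0.28 and -0.05, and Nkd1 by -0.50, -0.55 and 1.17.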
